A study of Oryza sativa with 6 samples.

Results

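G-quadruplexes (G4s) are folded DNA structures in which guanines of G-rich strands pair into stacked tetrads, held together by K+. Pyridostatin (PDS) is a small ligand that binds the tetrads and stabilises folded G4s, whereas polyethylene glycol (PEG) crowds the solution and favours folding without binding a particular site. The places described here are those where BG4, an antibody fragment against G4s, enriched rice DNA with PDS in both libraries and was not seen to do so with PEG. To find them, the peaks of all 4 lists were pooled and overlapping peaks were merged, and a merged interval was kept as a K+PDS-only site when it contained a peak of both K+PDS libraries and no peak of either K+PEG library. This gave 4376 K+PDS-only sites among 115855 merged intervals, or 3.78% of them, on all 12 chromosomes. Since the sites were chosen by the peak calls themselves, their presence with PDS and absence with PEG is a description and not a result.

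The libraries were made by BG4-DNA-IP-seq, in which purified, fragmented genomic DNA is denatured, refolded and pulled down in vitro, so that chromatin does not take part. The DNA came from above-ground tissue of wild-type seedlings of the cultivar Nipponbare, 2 weeks old and fixed with formaldehyde. There were 2 K+PDS libraries (150 mM KCl with 5 μM PDS in the incubation buffer) and 2 K+PEG libraries (150 mM KCl with 40% PEG), described as biological replicates. The PDS concentration is that of the methods, since the protocol text of the sample labels is the same for every sample and names PEG only. The 2 input samples were not analysed here. All positions are on MSU v7.0, and neither the sequence nor the gene and repeat annotation of that assembly was used.

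The lists give called peaks and no read counts. The number of reads at each peak summit was therefore solved from the fold enrichment and the p-value, as given in the methods, which also yields the depth. K+PDS replicates 1 and 2 had 5985000 and 7554100 reads, against 7904188 and 13334915 reads in K+PEG replicates 1 and 2. Both K+PDS libraries were thus shallower than both K+PEG libraries. The word uniq stands in the names of the K+PDS peaks and not in those of the K+PEG peaks. What it marks is not given in the sources used here, and the part of a possible filter in what follows was not tested. A place without a K+PEG peak was not called there, which is not the same as a place without signal.

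The K+PDS-only sites were a small class. The same rule applied the other way round gave 11739 K+PEG-only sites (10.1% of all merged intervals), so that there were 0.373 K+PDS-only sites for each K+PEG-only site. In the other classes, 27477 intervals had a peak of all 4 libraries, 20947 of exactly 3 and 42477 of 1 library. Intervals with a peak of exactly 2 libraries allow the K+PDS pair to be set beside the mixed pairs. There were 3545 intervals of K+PDS replicate 1 and K+PEG replicate 2, 2844 of K+PDS replicate 2 and K+PEG replicate 2, 1492 of K+PDS replicate 2 and K+PEG replicate 1, and 958 of K+PDS replicate 1 and K+PEG replicate 1. The K+PDS pair therefore exceeded each of the 4 mixed pairs, by 1.23 times for the most frequent of them. The K+PDS-only sites held 4515 of the peaks of K+PDS replicate 1 (6.96%) and 4464 of those of replicate 2 (6.47%). The K+PEG-only sites took up larger parts of their lists, with 11878 (16.2%) of the first K+PEG library's peaks and 11834 (14.4%) of the second's. When a single library stood for K+PDS, more sites met the rule, 20002 with replicate 2 and 13060 with replicate 1, and with K+PEG replicate 1 as the only K+PEG library there were 9812. The ratio to K+PEG-only sites was then 0.988 with K+PDS replicate 2 alone and 0.732 with K+PDS replicate 1 alone. It was 0.710 with 64874 peaks taken from each list, and it was 0.192 with a −log10 p of at least 5 in all lists and 0.0908 with this threshold in the K+PDS lists alone. No test was made, because the rule uses this contrast.

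Most K+PDS-only sites were made of a single peak per library. This held for 4160 of the 4376 sites (95.1%, 95% Wilson interval 94.4 to 95.7%). The share was higher in K+PEG-only sites, at 98.1%, and lower in sites called in all 4 libraries, at 77.7%. Wilson intervals, here and below, cover counting error only, and the sites of a class come from the same libraries. The median length of a K+PDS-only site was 450 bp, with 80% of the sites between 273 and 837 bp, against 396 bp for K+PEG-only sites and 896 bp for sites of all 4 libraries. It was 215 bp for the segments shared by the replicates, 289 bp without K+PDS replicate 1 and 276 bp without K+PDS replicate 2, since the merged length depends on how many peaks are joined. The individual peaks in K+PDS-only sites were shorter, with a median of 310 bp in replicate 1 and 314.5 bp in replicate 2, of which a median of 222 bp was shared. The longer site thus goes with 2 peaks that are displaced from each other, and the summits tell the same. The summits of the K+PDS replicates lay a median of 81 bp apart in K+PDS-only sites, against 47 bp between the K+PEG replicates in K+PEG-only sites. They were at most 50 bp apart in 1622 K+PDS-only sites (37.1%, 35.6 to 38.5%), compared with 53.2% of the K+PEG-only sites, and over 200 bp apart in 1011 (23.1%, 21.9 to 24.4%), compared with 9.29%. In the sites of all 4 libraries, which are longer, the summits of the K+PDS replicates were 100 bp apart.

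The enrichment at K+PDS-only sites was modest. The fold enrichment, a linear ratio in which summit reads are divided by the local background after 1 read is added to each, had a median of 3.37 in K+PDS replicate 1 and 3.12 in replicate 2. It ran from 1.81 to 29.8 in replicate 1 and from 1.51 to 12.6 in replicate 2, and 80% of the sites lay between 2.60 and 4.82 and between 2.41 and 4.31 in the 2 libraries. Behind these values stood a median of 14 summit reads in replicate 1 and 16 in replicate 2. The sites were thus read from few fragments, and 340 of them (7.77%) had at most 10 reads in at least 1 of the libraries. Over all peaks of replicates 1 and 2, the median fold enrichment was 3.77 and 3.23, with 16 and 17 summit reads. The K+PDS-only sites were thus only a little below their whole lists. In the same 2 libraries, the sites called in all 4 libraries had a median fold enrichment of 4.66 and 3.66. Both replicates reached a fold enrichment of at least 5 in 86 K+PDS-only sites (1.97%), while 13% of all intervals with a peak of both K+PDS libraries did so. A −log10 p of at least 5 in both replicates was found in 1679 sites (38.4%), against 63.3% of all such intervals, and a q-value of at most 0.05 in both in 4270 sites (97.6%), against 99%. The rule itself bears on these shares, since it removes every interval with a K+PEG peak. The lower of the 2 fold enrichments had a median of 2.92 in K+PDS-only sites, compared with 3.04 in K+PEG-only sites, which were read in deeper libraries.

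Among the peaks at the lowest background of their list, the weakest were of much the same fold enrichment in all 4 lists. Their lowest fold enrichment was 2.17 from 8 reads in K+PDS replicate 1 and 2.01 from 9 reads in replicate 2. In K+PEG replicates 1 and 2 it was 2.13 from 10 reads and 2.0 from 15 reads. Peaks at higher backgrounds went lower, to 1.51 in K+PDS-only sites and 1.57 in K+PEG-only sites, both in replicate 2. The signal of the K+PEG libraries at the K+PDS-only sites is not given by the lists.

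The 2 K+PDS replicates ranked the sites only loosely alike. Over the 4376 sites, which share their 2 libraries, the fold enrichments of both replicates had a Spearman correlation of 0.356, compared with 0.392 for K+PEG-only sites and 0.543 for sites of all 4 libraries. The fold enrichment was higher in replicate 1 at 2829 sites (64.6%). A site differed by a median of 1.20 times between the replicates, and by at least 2 times at 71 sites (1.62%). The most unequal site, picked after its values were seen, lies at chr9:10227586-10228025. Its enrichment was 29.8 in replicate 1, with 173 reads, and 4.31 in replicate 2, with 30 reads, and the summits were 16 bp apart. It is the strongest site of replicate 1, and in replicate 2 it lies near 4.31, the value that 10% of the sites exceed. When the sites were split into 3 groups of equal size by their lower fold enrichment, the summits were a median of 42 bp apart in the strongest group, against 99 bp in the middle group and 110 bp in the weakest. The length of the sites hardly moved with strength, with a Spearman correlation of -0.04, whereas it was 0.22 for K+PEG-only sites and 0.39 for sites of all 4 libraries.

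**Figure D1:**
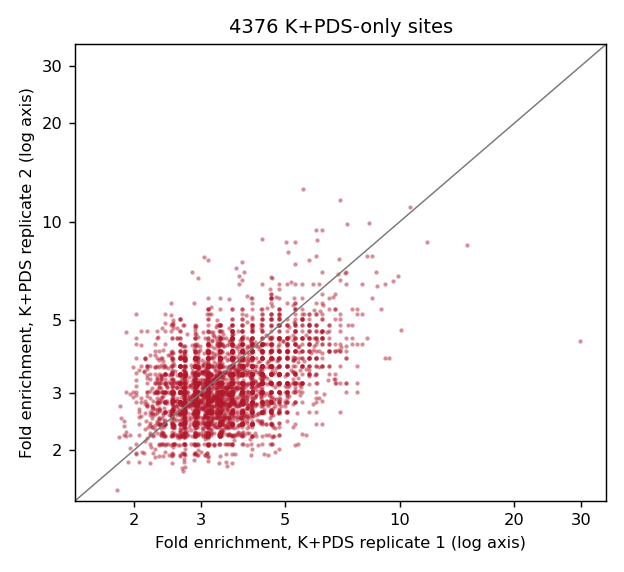
Fold enrichment of the strongest peak of K+PDS replicate 1 (x axis) and replicate 2 (y axis) in each of the 4376 K+PDS-only sites, on log axes, with the line of equal values. Most points lie between 2 and 5 in both libraries, the point at 29.8 on the x axis is the site on chromosome 9, and the rows and columns of points come from whole numbers of reads over a shared background.

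Ranked by the lower of the 2 libraries, the 10 strongest sites lie on chromosomes 1, 2, 4, 5, 6, 9 and 11, with 3 of them on chromosome 4 and 2 on chromosome 6. The first, at chr5:25805939-25806940, reached 10.7 in K+PDS replicate 1 and 11.1 in replicate 2 with 50 and 63 summit reads, and the summits of both replicates fall on the same base, 25806335. It is also the member of this group nearest to a K+PEG peak, which is 10 bp away from the site. Its peak spans 466 bp in replicate 1 and 1002 bp in replicate 2. The second lies at chr1:18294368-18294716, and reached 11.8 and 8.64 with 48 and 42 reads, and its nearest K+PEG peak is 1815 bp away. These 2 sites differ in how near a K+PEG peak comes to them.

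The third and the fifth of the strongest sites lie on chromosome 4, less than 1 Mb apart. The site at chr4:9800943-9801321 reached 15.0 and 8.49 with 82 and 52 reads and lies 515 bp from a K+PEG peak. That at chr4:10484318-10485680 reached 8.19 and 7.84 with 33 and 38 reads and lies 534 bp from a K+PEG peak. The replicates differ far more at the first of these than at the second. The fourth, at chr2:14286742-14287076, reached 8.32 and 9.91 with 52 and 76 reads and is 2169 bp from the nearest K+PEG peak. It is one of 3 sites of the group where replicate 2 was the higher library.

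Of the pair on chromosome 6, chr6:14764528-14764968 had 8.43 and 7.84 and chr6:23569260-23569596 had 7.29 and 9.81. The 2 replicates thus took opposite orders at these sites. The site at chr4:22722871-22723196 had 7.23 and 7.03, that at chr9:4889921-4890181 had 8.67 and 7.03, and that at chr11:9297114-9297533 had 7.18 and 6.99. The last of them is 5636 bp away from any K+PEG peak, the farthest of the group. In all 10 sites the summits of the replicates were at most 132 bp apart, and in 9 of them at most 41 bp.

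**Figure D2:**
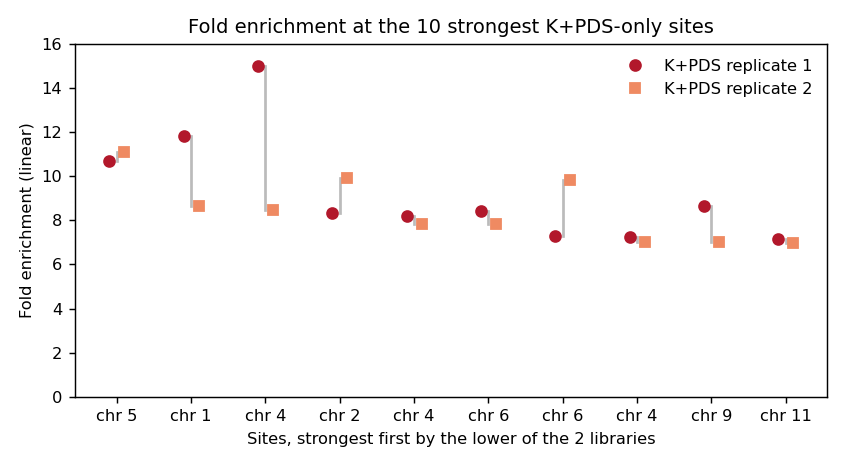
Fold enrichment (y axis, linear, from 0) in K+PDS replicate 1 (circles) and replicate 2 (squares) at the 10 strongest K+PDS-only sites, labelled by chromosome and ordered by the lower value. The lower value goes down to 6.99 at the last site, and the widest gap is at the third site, with 15.0 in replicate 1 and 8.49 in replicate 2.

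The longest site lies at chr6:25612188-25614390, 2203 bp in all, and had a fold enrichment of 4.34 and 3.29 with summits 507 bp apart. The next are 2161 bp long at chr3:7536299-7538459, with 3.61 and 4.62, and 2144 bp long at chr6:2673651-2675794, with 3.86 and 4.02. In each of the 3, the summits of the replicates were over 300 bp apart and the lower fold enrichment was above the class median of 2.92. The displacement of the 2 peaks is part of the merged length by construction. The weakest site, picked after its values were seen, lies at chr12:20620731-20621056, with 37 and 40 reads over a background of 20 and 26.2 reads, that is an enrichment of 1.81 and 1.51. A site close to it, at chr12:20618248-20619201, is the next weakest, with 2.69 and 1.72 over 16.8 and 23.4 reads. Such high backgrounds were rare, as only 60 sites (1.37%) had at least 2 times the lowest background of replicate 1 and 54 (1.23%) that of replicate 2.

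At the other extreme, the background of the K+PDS-only sites was low. MACS2 takes as the background of a summit the highest of several local averages of the control and the genome-wide average of the library, so that the lowest background in a list marks summits where the control was at or below that average. The strongest peak had the lowest background of its list in 2146 K+PDS-only sites in replicate 1 (49.0%, 47.6 to 50.5%) and in 2134 in replicate 2 (48.8%, 47.3 to 50.2%). In K+PEG-only sites the share was 9.06% in K+PEG replicate 1 and 9.35% in replicate 2. In sites of all 4 libraries it was 18.7% in both K+PDS libraries and 18.9% and 19.0% in the K+PEG libraries. The whole lists differed too. Over all peaks of a list, the share was 25.6% and 22.6% in K+PDS replicates 1 and 2, and 15.5% and 17.4% in K+PEG replicates 1 and 2. Within K+PDS replicate 1, the depth being the same, the share was 49.0% in K+PDS-only sites, 43.7% in sites of both K+PDS libraries and K+PEG replicate 1, 34.3% in its own single-library sites and 16% in sites shared with both K+PEG libraries but not with K+PDS replicate 2. In K+PDS replicate 2 the same kinds of sites had 48.8, 42.1, 22.0 and 8.85%. Its single-library sites were thus near the 22.6% of its whole list, unlike those of replicate 1. Among the 15 possible combinations of libraries, the K+PDS pair had the highest share. A low background makes a peak easier to call with few reads in any library, so this measure is not independent of the peak calls. Where libraries of both conditions had a peak, their shares were nearly equal. At sites of K+PDS replicate 2 and both K+PEG libraries alone, they were 8.85% in the former and 8.61 and 8.74% in the latter. The background of the K+PEG libraries at K+PDS-only sites is not given by the lists. The part of the control in the membership of a site was not tested.

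**Figure D3:**
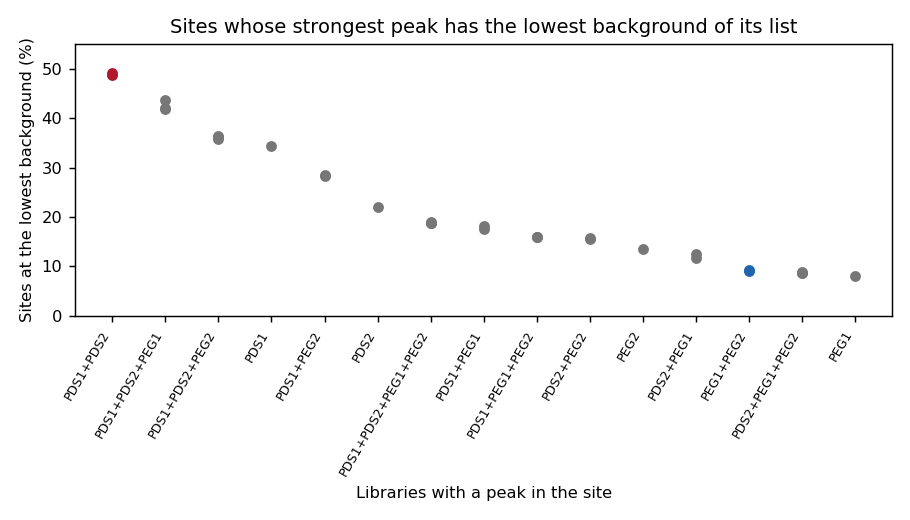
Percentage of sites (y axis) whose strongest peak has the lowest background of its list, for each of the 15 combinations of libraries with a peak in the site (x axis, PDS and PEG with the replicate number), with 1 point per library. The K+PDS-only sites (red, left) are at 49.0 and 48.8%, and the K+PEG-only sites (blue) at 9.06 and 9.35%.

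The distance of K+PDS-only sites to K+PEG peaks was measured where such peaks are dense, with 73199 and 81992 of them in K+PEG replicates 1 and 2. The distance that this density alone would give was not computed, so the values do not show that K+PDS-only sites are particularly close. The nearest peak of either K+PEG library was a median of 848 bp away, within 500 bp for 1483 sites (33.9%, 32.5 to 35.3%) and within 5000 bp for 4139 (94.6%). The nearest peak was a median of 1817.5 bp away in K+PEG replicate 1 and 985.5 bp in K+PEG replicate 2. The latter list holds more peaks, and the part of this in the difference was not tested. For K+PEG-only sites, the nearest K+PDS peak was a median of 1655 bp away, within 500 bp for 19.5% and within 5000 bp for 84.7%. The K+PDS lists hold fewer peaks, so the 2 distances are not measured against equal densities. The distance did not move with strength, as its Spearman correlation with the lower fold enrichment was 0.004 over the K+PDS-only sites. The 3 sites farthest from any K+PEG peak lie at chr10:4149335-4149650 (44853 bp away), at chr9:3810562-3810870 (15822 bp) and at chr12:22991925-22992199 (14781 bp). In K+PDS replicate 1 the 3 sites had a fold enrichment of 4.82, 4.34 and 3.61, and in replicate 2 one of 4.42, 3.27 and 4.02, so that they were not weak for their class.

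**Figure D4:**
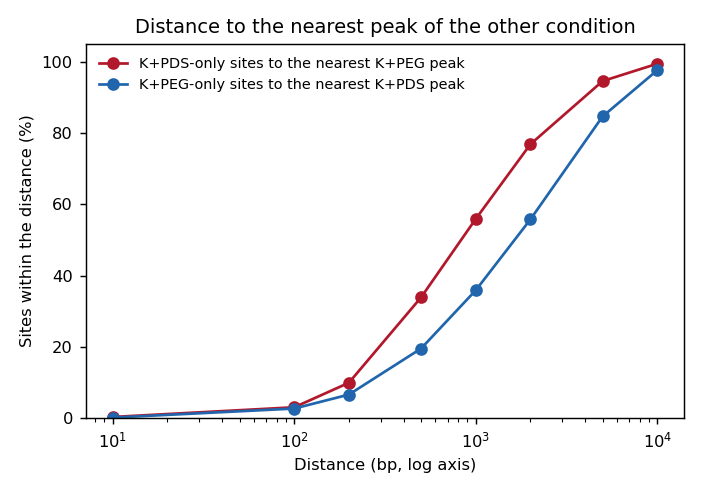
Cumulative percentage of sites (y axis) within a given distance (x axis, bp, log axis) of the nearest peak of the other condition, for K+PDS-only sites (red) and K+PEG-only sites (blue). The red line is the higher one, with 33.9% against 19.5% at 500 bp and 94.6% against 84.7% at 5000 bp.

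The rule turns on a single base, so sites on either side of it were looked at. Just inside, 14 K+PDS-only sites lay within 10 bp of a K+PEG peak, the closest at chr11:3138647-3139037 at 1 bp, with a fold enrichment of 2.51 and 2.79. The next closest, both at 2 bp, are at chr1:18435649-18436360, with 3.98 and 2.95, and at chr3:7677930-7678404, with 2.32 and 3.20. Just outside, an interval at chr12:27088391-27089187 was left out for an overlap of 5 bp between a K+PDS and a K+PEG peak, with K+PDS values of 2.17 and 2.88. Another at chr5:9201749-9202629 was left out for 7 bp, with 3.89 and 4.35.

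The study's browser view shows a window of chromosome 4. In that window, 2 K+PDS-only sites were found here. One of them, at chr4:21424151-21424464, reached 2.86 in K+PDS replicate 1 and 2.83 in replicate 2 with 17 and 18 summit reads, 311 bp from a K+PEG peak. The other, at chr4:21432960-21433387, reached 2.78 and 3.02 with 12 and 16 summit reads, 6072 bp from a K+PEG peak. Both were below the class median of 3.37 in replicate 1 and 3.12 in replicate 2, and they differ in how far the nearest K+PEG peak is.

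The sites were not spread evenly over the chromosomes. K+PDS-only sites were densest on chromosome 5, with 14.8 per Mb, followed by chromosomes 4, 12 and 8 with 14.7, 14.5 and 14.1 per Mb, and sparsest on chromosome 3, with 7.91 per Mb, and on chromosomes 2 and 1, with 8.99 and 9.50 per Mb. K+PEG-only sites were densest on the chromosomes where K+PDS-only sites were sparsest, with 35.3, 34.2 and 33.1 per Mb on chromosomes 3, 1 and 2, and sparsest on chromosomes 12 and 4, with 29.0 and 29.1 per Mb. The number of K+PDS-only sites for each K+PEG-only site therefore ranged from 0.224 on chromosome 3 to 0.505 on chromosome 4, and it was below 1 on all 12 chromosomes. Chromosomes differed by 1.87 times in the density of K+PDS-only sites and by 1.22 times in that of K+PEG-only sites.

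Within chromosomes, K+PDS-only sites took a larger share of all merged intervals towards the middle. They made up 3.16% of the intervals in the outermost 10% of the way from a chromosome end to the middle, 4.56% between 70 and 80% of the way, where the share was highest, and 4.00% in the innermost 10%. K+PEG-only sites made up 12.2% of the intervals in the outermost 10% of the way and 8.72% in the innermost 10%. Sites of all 4 libraries also lay further in than all merged intervals, with medians of 54.8 and 52.4% of the way to the middle. The median was 57.9% for K+PDS-only sites and 47.9% for K+PEG-only sites. Rice chromosomes carry gene-rich arms and repeat-rich heterochromatin around their centromeres, which need not be at the middle, and centromere positions were not used here.

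**Figure D5:**
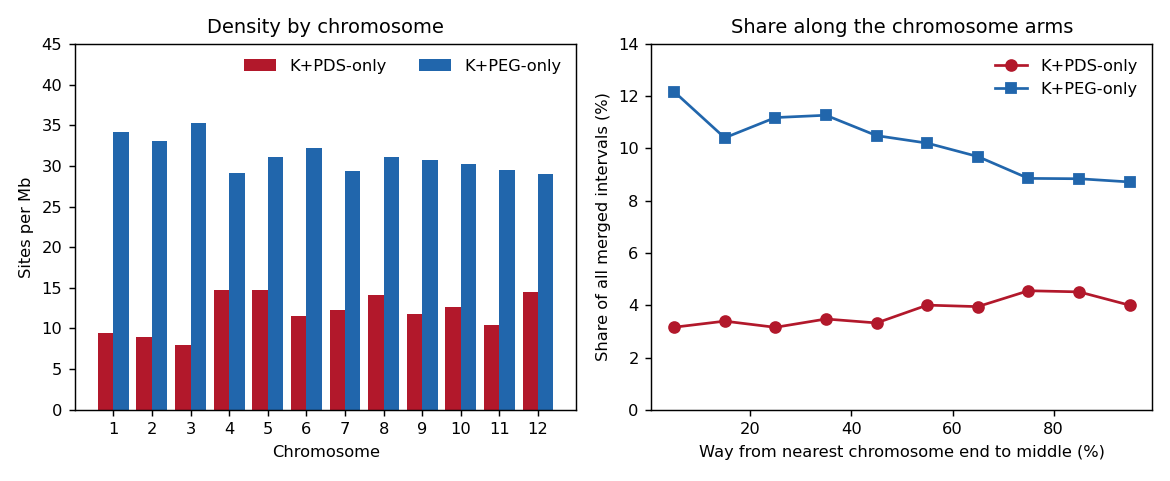
Left, K+PDS-only (red) and K+PEG-only (blue) sites per Mb (y axis, from 0) on each chromosome (x axis). Right, share of all merged intervals (y axis, %) that are K+PDS-only or K+PEG-only sites, in steps of 10% of the way from the nearest chromosome end to the middle (x axis, %). The red bars are highest on chromosomes 5 and 4 (14.8 and 14.7 per Mb) and lowest on chromosome 3 (7.91 per Mb), and the blue line goes down from 12.2% at the ends to 8.72% in the middle.

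In bins of 1 Mb, a median of 10 K+PDS-only sites was found, against 31 K+PEG-only sites. The fewest bins that held 50% of the K+PDS-only sites were 103 of 379, compared with 154 for K+PEG-only sites and 153 for sites of all 4 libraries. This number also becomes lower when a class has fewer sites, by counting scatter alone, and the classes were not brought to equal size. The bin with the most K+PDS-only sites was that from 18 to 19 Mb on chromosome 6, with 46 K+PDS-only and 12 K+PEG-only sites. It was followed by 7 to 8 Mb on chromosome 8, with 37 and 16 sites, and by 20 to 21 Mb on chromosome 12, with 36 and 19, where K+PDS-only sites were 11.6% of all merged intervals. Next were 3 to 4 Mb on chromosome 4, with 34 and 19 sites, and, with equal numbers of K+PDS-only sites, 7 to 8 Mb on chromosome 4, with 33 and 27, and 11 to 12 Mb on chromosome 5, with 33 and 17. In all 6 of these bins K+PDS-only sites outnumbered K+PEG-only sites. They did so in 26 bins of the genome, which held 736 K+PDS-only sites (16.8%) and 485 K+PEG-only sites (4.13%), while K+PEG-only sites were more numerous in 350 bins. The 26 bins were picked by these counts, so the larger share of K+PDS-only sites in them is fixed by the choice, and counting scatter also yields such bins. Of the 26 bins, 8 lie on chromosome 4, 5 on chromosome 5 and 3 on chromosome 8, and none on chromosomes 2 and 3. Only 3 bins had no K+PDS-only site, from 5 to 6 Mb on chromosome 3, from 12 to 13 Mb on chromosome 9 and the short last bin of chromosome 11, and the first 2 of them had 36 and 53 K+PEG-only sites.

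The short arm of chromosome 4 is known as heterochromatic. The first 10 bins of the chromosome held 212 K+PDS-only and 239 K+PEG-only sites, or 21.2 and 23.9 per bin. The other 26 bins held 310 and 794 sites, or 11.9 and 30.5 per bin. The split at 10 Mb was chosen after the bins were seen, and it is not where the pattern ends. From 10 to 16 Mb, the successive bins held 27, 29, 18, 15, 16 and 19 K+PDS-only sites. They held 20, 24, 24, 28, 23 and 12 K+PEG-only sites. The bins from 0 to 1 and from 1 to 2 Mb held only 12 and 10 K+PDS-only sites, against 26 and 27 K+PEG-only sites.

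Across bins, K+PDS-only and K+PEG-only sites went in opposite directions, with a Spearman correlation of -0.475 over 379 bins, which share their libraries and are not replicates. It was negative on each of the 12 chromosomes, from -0.22 on chromosome 3 to -0.57 on chromosome 5. The rule lets no interval be in both classes, and the part of this in the sign of the correlation was not tested. With the sites of all 4 libraries, the K+PDS-only sites had a correlation of 0.545 and the K+PEG-only sites of -0.330. The libraries did not contribute equally to this pattern. Intervals called in K+PDS replicate 1 alone, which are no members, had a correlation of 0.679 with the K+PDS-only sites, whereas those called in K+PDS replicate 2 alone had one of 0.044. When replicate 2 alone stood for K+PDS, the correlation of K+PDS-only with K+PEG-only sites was -0.213, and when replicate 1 alone did it was -0.511. Without K+PEG replicate 1 it was -0.243, and without K+PEG replicate 2 it was -0.502. The correlation was thus weakest where replicate 1 of either condition was left out, and the part of single libraries in it was not tested further.

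Neighbouring sites tended to be of the same class. Of the 8752 neighbours of K+PDS-only sites, that is the next merged interval on either side, 1020 (11.7%) were K+PDS-only sites themselves, which are 3.78% of all merged intervals, and 346 (3.95%) were K+PEG-only sites, which are 10.1%. Of the neighbours of K+PEG-only sites, 14.0% were K+PEG-only and 1.47% were K+PDS-only. Sites of all 4 libraries, which are 23.7% of all merged intervals, were 20.2% of the neighbours of K+PDS-only sites and 22.7% of those of K+PEG-only sites. The nearest other K+PDS-only site was a median of 7983 bp away, and 1780 sites (40.7%) had another within 5000 bp, against 32.2% of the more numerous K+PEG-only sites. No test was made of these shares, and the part of the uneven density along the chromosomes in them was not tested.

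In 440 places at least 2 K+PDS-only sites followed each other with no other merged interval between them, namely 378 pairs, 54 runs of 3 and 8 runs of 4. The widest run of 4 lies at chr8:7393817-7401975, in the bin that ranked second. Its sites had a fold enrichment of 3.61, 3.37, 2.89 and 5.78 in K+PDS replicate 1 and of 3.64, 3.22, 3.22 and 3.82 in replicate 2, and each was at least 6532 bp from a K+PEG peak. The second widest lies at chr11:14171644-14179223, with 3.86, 4.10, 5.54 and 4.82 in replicate 1 and 3.62, 3.62, 5.43 and 4.82 in replicate 2, and each of its sites was at least 6417 bp from a K+PEG peak. The widest gap between the replicates was at the last site of the first run, with 5.78 and 3.82. In the second run it was smaller, with 4.10 and 3.62 at the second site. In both runs the summits of the replicates were at most 112 bp apart at every site. The 2 runs were picked by width, and a run holds no other merged interval, so this choice bears on their distance to K+PEG peaks. The run of 4 on chromosome 4 had a site 252 bp from a K+PEG peak and that at chr5:9899630-9903076 one at 319 bp. In the run at chr5:3587068-3592399 each site was at least 6162 bp away.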

How the data were processed

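Per the methods, Trim Galore (0.4.4) served the authors for trimming and BWA (0.7.17) for alignment to the MSU v7.0 assembly. Alignments over 50 bp were kept, SAMtools (1.5) discarded duplicates and MACS2 (2.1.1) was run per library (p 0.01, genome size 380000000 bp). The control given to MACS2 is not given in the sources used here. The deposited lists give for each summit the fold enrichment (a linear ratio) and its p-value and q-value as −log10, besides a browser score that was not used. Starts count from 0, so 1 was added to every printed start.

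Peaks were merged when they overlapped by at least 1 bp, and each library was represented in a site by its peak of highest fold enrichment. Reads and background at summits were solved from fold and −log10 p (tolerance 0.001, whole numbers for all but 4 peaks), and depths assume an extension of 200 bp. Python 3.11.15 was used (pandas 2.3.3, scipy 1.17.1, numpy 2.4.6), and merging, distances and read recovery were tested on simulated data. No test was made, because the rule uses the calls of every library. Named sites were the 10 strongest by the lower replicate, the 3 longest, the 3 farthest from and the closest to a K+PEG peak, those in the browser window, the 5 bins with the most sites (6 with a tie) and, among 8 runs of equal number, the 2 widest. The sites, classes and measures were chosen with earlier results of these data known. The genome and annotation of MSU v7.0 were not used.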

Additional observations from a re-analysis of the deposited data

How the results depend on the processing

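The number of K+PDS-only sites was within 1.5 times of 4376 with the segments shared by the replicates (6441), with intervals up to 200 bp apart merged (3758) and when every library was cut to 64874 peaks (6278). It was 2803 with a reciprocal overlap of at least 50% between replicates, 2548 with a −log10 p of at least 5 in all lists and 1684 with this threshold in the K+PDS lists alone. Without 1 library it ranged from 6151 without K+PEG replicate 1 to 20002 without K+PDS replicate 1 (13060 without K+PDS replicate 2 and 9812 without K+PEG replicate 2), since a single library then stands for its condition, which adds sites by construction. The ratio to K+PEG-only sites stayed below 1 throughout. It was 0.192 and 0.0908 under the 2 stricter thresholds, 0.710 with 64874 peaks per library, and from 0.263 without K+PEG replicate 1 to 0.988 without K+PDS replicate 1 (0.732 without K+PDS replicate 2). The median lower fold enrichment was 3.55 and 3.61 under the 2 stricter thresholds and 3.0 to 3.14 without 1 library. The median length moved under every alternative by more than 3.18 bp, the SD of the median peak lengths of the 2 K+PDS replicates. That SD is of single peaks and not of merged sites, so it is a narrow yardstick. It was 215 bp for shared segments, 371 bp with reciprocal overlap, 496 bp with intervals merged over gaps, 512 and 431 bp under the 2 thresholds, 498 bp with 64874 peaks per library and 276 to 507 bp without 1 library (276 bp without K+PDS replicate 2 and 289 bp without K+PDS replicate 1). The median distance to a K+PEG peak ranged from 809 to 1620 bp without 1 library, the highest without K+PEG replicate 2, and otherwise moved by less than the spread between K+PEG replicates. The correlation of K+PDS-only with K+PEG-only sites over bins and the share of sites with the lowest background in both K+PDS libraries (41.1%) were recomputed after they had been seen. The correlation was negative in each of the 9 alternatives, from -0.511 to -0.213, and the share ranged from 28.7% without K+PDS replicate 1 to 57.6% with the stricter K+PDS threshold. The cause of these shifts was not tested. No paired analysis was possible because the results come from no test. K+PDS-only sites were read from a median of 14 and 16 reads, so single sites are imprecise.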
